A study of Mus musculus with 4 samples.

Results

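B lymphocytes present antigen to T cells, and the outcome of that contact depends on a second set of surface proteins beside the antigen itself. Ligands of the B7 family (Cd80, Cd86, Icosl, Cd274 and Pdcd1lg2) bind receptors of the CD28 family on T cells, where they either support activation, through CD28 and ICOS, or restrain it, through CTLA-4 and PD-1. Members of the tumour necrosis factor (TNF) superfamily (Tnfsf9 and Cd70 as ligands, Tnfrsf14 and Tnfrsf18 as receptors) act beside them, and BTLA, an inhibitory receptor that B cells carry, is bound by HVEM, the product of Tnfrsf14. These 10 genes were chosen by name as costimulatory and checkpoint genes of B cells, and all 10 were found among the 23418 gene symbols of the table.

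RNA was sequenced from B cells sorted out of the cervical lymph nodes, which drain the salivary glands, of NOD.B10 mice and of BL/10 control mice, with 2 libraries per strain. NOD.B10 mice have the H2 region of a B10 strain on the autoimmune-prone NOD background and serve as a model of Sjögren's disease; the series as a whole concerns IL-36 cytokines in that disease. No treatment is named in the labels, and age, sex, the sorting gate and the number of animals per library are not given in the sources used here. No label ties the replicates to different animals, and every p-value here therefore reflects library-to-library spread alone, which may be technical. Total counts were 19328803 and 25375678 reads in the NOD.B10 libraries and 29372751 and 26150794 reads in the BL/10 libraries.

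The B cell label was checked against its markers. All 12 B cell markers in the table were expressed, and together they reached 12612 and 13009 counts per 1000000 reads (CPM) in NOD.B10, against 11257 and 11448 CPM in BL/10; Ms4a1, which encodes CD20, stood at 1572 and 1677 CPM in NOD.B10 and at 1760 and 1624 CPM in BL/10. Of the 12 markers, Fcer2a was called higher in NOD.B10 (log2 fold change 0.57, adjusted p = 0.00287, edgeR) and 11 were not called. The median log2 fold change of the 12 was 0.084. The libraries were not free of other cells. The 19 T cell markers summed to 228 and 215 CPM in NOD.B10, against 770 and 878 CPM in BL/10, and all 19 were called lower in NOD.B10, although Cd2 was not under a replicate block (adjusted p = 0.0587) or without either NOD.B10 library (adjusted p = 0.0757 and 0.249). Cd2 and Lck, which B cells also express at some level, made up most of the NOD.B10 sum, with 166 and 153 CPM for Cd2 and 38.3 and 45.9 CPM for Lck, whereas Cd3e, a chain of the T cell receptor complex, had 1.24 and 0.313 CPM in NOD.B10 against 43.0 and 59.3 CPM in BL/10. No T cell marker was at 0 reads in both NOD.B10 libraries. The part of T cell RNA in the values below was not tested, and in bulk libraries fewer cells of a type and less RNA per cell cannot be told apart.

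Of the 10 genes, 9 passed the filter on low counts, and 3 of these were called different between the strains (edgeR quasi-likelihood test, Benjamini-Hochberg adjusted p under 0.05 over all 13075 genes tested). Cd80 and Cd86 were lower in NOD.B10, by 2.82-fold and 1.5-fold, and Tnfrsf18 was higher, by 1.82-fold. The other 6 tested genes, Icosl, Cd274, Pdcd1lg2, Tnfsf9, Btla and Tnfrsf14, were not called, and Cd70 was hardly detected. The background is that 15.2% of the whole tested table was called: 6.55% was higher in NOD.B10 and 8.63% was lower. These shares are also the background for the counts given for each list of genes below. The median log2 fold change was −0.22 for the 9 genes and −0.0032 for all genes tested. The 2 libraries of each strain did not overlap for 7 of the 9 genes, which compares with 55.6% of all genes tested.

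**Figure D1:**
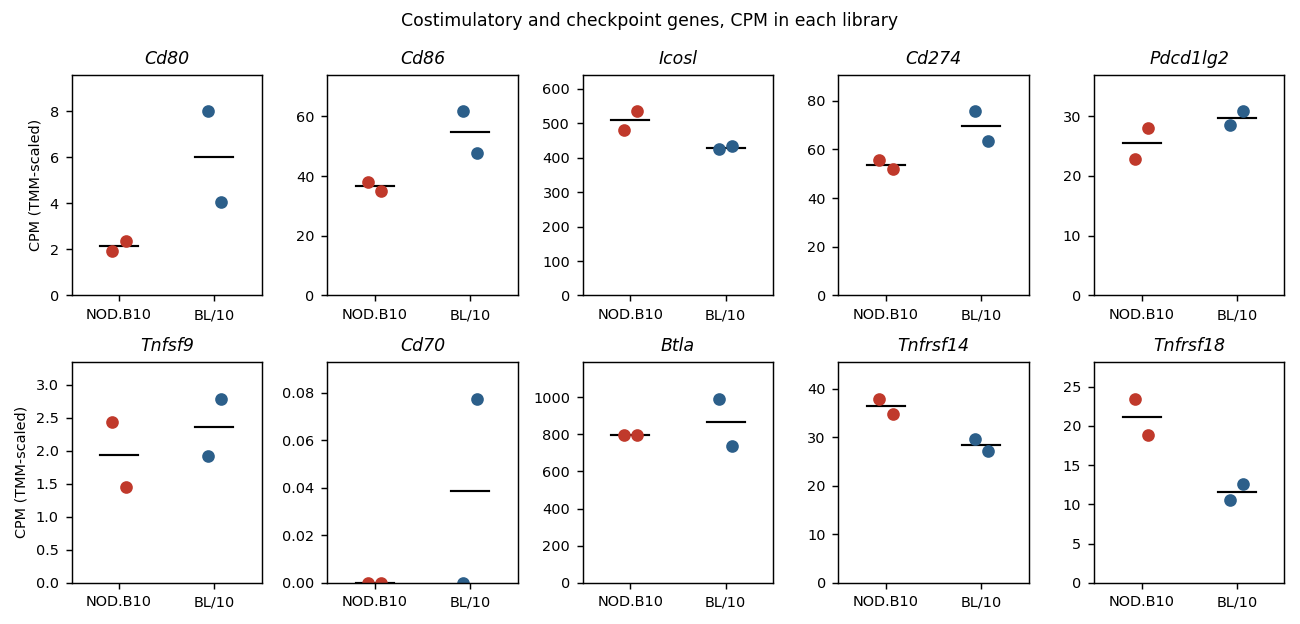
CPM over TMM-scaled library sizes of the 10 genes in each library; each point is 1 library (red NOD.B10, blue BL/10), the black bar is the mean of a strain and each panel has its own axis from 0. The NOD.B10 points lie below both BL/10 points for Cd80, Cd86, Cd274 and Pdcd1lg2 and above them for Icosl, Tnfrsf14 and Tnfrsf18.

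Cd80 and Cd86 encode B7-1 and B7-2, the ligands that CD28 uses for costimulation and CTLA-4 for inhibition; on resting B cells Cd86 is the more readily induced of the pair. Cd80 (chromosome 16, 38457430 to 38495958, GRCm38.p6) had 37 and 60 reads in NOD.B10, or 1.92 and 2.35 CPM, against 237 and 105 reads in BL/10, or 8.0 and 4.07 CPM. Both NOD.B10 values were thus below both BL/10 values, and the BL/10 libraries differed from each other 1.97-fold. Their 95% counting intervals were 7.02 to 9.09 and 3.33 to 4.93 CPM, so that this gap within the strain exceeded counting error. The log2 fold change was −1.50 (SE 0.389, 95% interval −2.34 to −0.65, adjusted p = 0.0189, n = 2 libraries per strain, edgeR). Without the first BL/10 library it was −0.93 and the call was lost (adjusted p = 0.327), as it was with limma-voom (adjusted p = 0.0615).

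Cd86 (chromosome 16, 36568956 to 36666158) was far more abundant. It stood at 38.1 and 35.1 CPM in NOD.B10, against 61.7 and 47.8 CPM in BL/10, with both NOD.B10 libraries close together and below both BL/10 libraries. The log2 fold change was −0.58 (SE 0.147, 95% interval −0.90 to −0.26, adjusted p = 0.0163, n = 2 per strain, edgeR). Without the first BL/10 library this call was lost as well (log2 fold change −0.39, adjusted p = 0.118). Within a library, Cd80 was 0.0503 and 0.0669 times Cd86 in CPM in NOD.B10, against 0.130 and 0.0851 times in BL/10. The ratio was thus lower in both NOD.B10 libraries than in either BL/10 library. The nearest values, 0.0669 and 0.0851, rest on 60 and 105 reads of Cd80, and the counting error of the ratio was not computed. The genes lie 1.79 megabases apart on chromosome 16, with 17 tested genes between them.

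The start region of Cd80 is shown because, of the called pair Cd80 and Cd86, it is the one with a promoter in the RefSeq table, 250 bases before to 50 after the start of transcription (chr16:38458683-38458982, plus strand, GRCm38.p6). The start used in that table lies inside the annotated span of the gene, as it does for Cd274, Btla and Tnfrsf14, so that the window is not the outer end of these genes. Capitals mark matches to GGGNNNNNCC, a loose form of the NF-kB motif, and to TGANTCA, the AP-1 motif, searched on both strands; the second NF-kB match and the AP-1 match lie side by side. NF-kB is the best known route by which CD40 and antigen receptor signals raise B7 genes in B cells.

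Cd80: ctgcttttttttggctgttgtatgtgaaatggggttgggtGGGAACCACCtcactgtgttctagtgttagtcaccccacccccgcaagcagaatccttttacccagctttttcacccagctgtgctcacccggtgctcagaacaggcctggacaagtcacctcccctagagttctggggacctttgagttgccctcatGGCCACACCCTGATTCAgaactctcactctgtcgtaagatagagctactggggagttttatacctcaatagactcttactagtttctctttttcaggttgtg

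The loose NF-kB motif was present in 50.8% of all 32851 promoters in the RefSeq table and the AP-1 motif in 7.81%, so the first is a common match. Of the 7 genes with a promoter there (Cd80, Icosl, Cd274, Pdcd1lg2, Btla, Tnfrsf14 and Tnfrsf18), 4 held the NF-kB motif and 1, Cd80, the AP-1 motif.

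BL/10 libraries that differed in Cd80 and Cd86 also differed in markers of plasma cells, the antibody-secreting end stage of B cells. The 8 plasma cell markers summed to 699 and 623 CPM in NOD.B10, against 1319 and 682 CPM in BL/10, and none of the 8 was at 0 reads in both libraries of a strain. Igj, which encodes the joining chain of secreted antibody, had 14.0 and 7.20 CPM in NOD.B10, against 608 and 119 CPM in BL/10. Sdc1, the plasma cell surface marker CD138, had 5.34 and 5.29 CPM in NOD.B10, against 19.8 and 7.94 CPM in BL/10. Prdm1, the transcription factor that drives plasma cell differentiation, had 4.66 and 4.54 CPM in NOD.B10, against 14.7 and 7.29 CPM in BL/10. The first BL/10 library was therefore the highest of the 4 for these 3 markers, for Cd80, Cd86 and Cd274, and for Btla. Of the 8 markers, Prdm1 and Tnfrsf17 were called lower in NOD.B10 and 0 were called higher, with a median log2 fold change of −0.67; without the first BL/10 library both calls were lost (adjusted p = 0.329 and 0.176). Sdc1 and Igj were not called in the main edgeR fit (adjusted p = 0.0755 and 0.209). Both were called in DESeq2 (adjusted p = 0.00343 and 4.46e-05) and in edgeR with non-robust dispersion (adjusted p = 0.0293 and 4.54e-04). Sdc1 was also called in edgeR under a replicate block (adjusted p = 0.0277) and with no filter on low counts (adjusted p = 1.39e-06). Igj was also called with limma-voom (adjusted p = 0.00717). The other 4 markers, Xbp1, Mzb1, Derl3 and Irf4, had log2 fold changes of 0.039, 0.042, −0.081 and 0.092 and were not called. Xbp1, Mzb1 and Derl3 were also highest in the first BL/10 library, at 133, 184 and 6.89 CPM, as was Tnfrsf17. Irf4 was highest in the first NOD.B10 library, at 388 CPM. The part of these cells in the Cd80 and Cd86 values was not tested. Dendritic cells, another source of both ligands, were read in the same way. Of 9 markers tested, 3 (Itgax, Siglech and Bst2) were called lower in NOD.B10 and 0 higher. Zbtb46 alone went the other way, at 4.92 and 4.78 CPM in NOD.B10 and 1.59 and 3.29 CPM in BL/10. It was not called (log2 fold change 0.995, adjusted p = 0.120, edgeR). All 12 listed markers summed to 189 and 161 CPM in NOD.B10 and 244 and 252 CPM in BL/10. Without the second BL/10 library Siglech and Bst2 lost their calls (adjusted p = 0.0588 and 0.237), and Itgax kept its own. Most of the summed level was Ccr7, which B cells also express, at 169 and 142 CPM in NOD.B10 and 213 and 182 CPM in BL/10, and which was not called. The part of dendritic cells was not tested either.

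**Figure D2:**
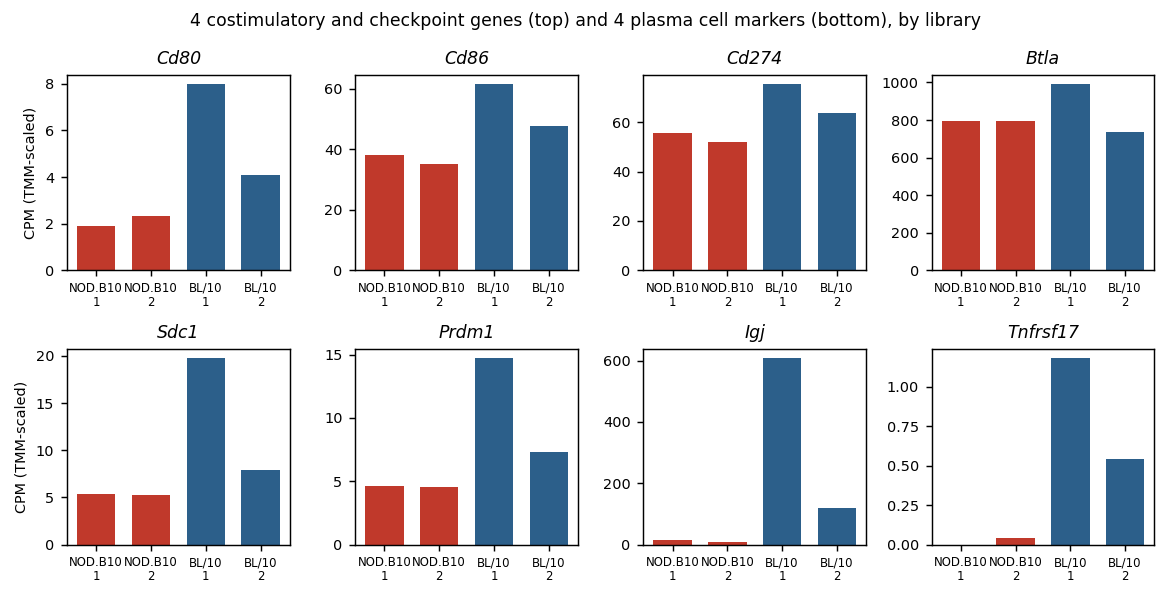
CPM (TMM-scaled) of Cd80, Cd86, Cd274 and Btla in the top row and of the plasma cell markers Sdc1, Prdm1, Igj and Tnfrsf17 in the bottom row; each bar is 1 library, red for NOD.B10 and blue for BL/10, with axes from 0. The genes of the plot were picked after their values were seen; the first BL/10 library is the highest in all 8 panels, for example 608 CPM for Igj against 119 CPM in the second.

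Cd80 also marks memory B cells in mice, together with Pdcd1lg2 and Nt5e (CD73). Nt5e had 4.61 and 5.17 CPM in NOD.B10, against 14.3 and 11.3 CPM in BL/10, and was called lower (log2 fold change −1.39, SE 0.246, adjusted p = 0.00179, edgeR); it was picked out after its values were seen. Of the 13 marginal zone, B-1 and memory B cell markers, 7 were called lower in NOD.B10, 1 was called higher and 5 were not called, with a median log2 fold change of −0.72. The gene called higher was S1pr3 (log2 fold change 0.94, adjusted p = 0.00386, edgeR). The 5 not called were Pdcd1lg2, Cd38, Cr2, Cd1d1 and Dtx1, with log2 fold changes of −0.22, 0.23, 0.71, 0.016 and −0.13. Cd80 itself and Nt5e are among the 7 called lower. Spn, Cd5 and Cd9 had the smallest adjusted p among these 7, and the first 2 of them are also expressed by T cells, whose other markers were lower in the same libraries. Among 10 germinal centre markers, Mki67, a proliferation gene, was the 1 called lower, and 0 were called higher.

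The 3 genes with a pattern most like that of Cd80 over the 4 libraries were Gpr137b, Scd2 and Cyp27a1, at distances of 0.218, 0.309 and 0.338 between log2 CPM profiles centred on each gene's mean, among 8424 candidates. Scd2, a fatty acid desaturase, had 113 and 124 CPM in NOD.B10 and 346 and 225 CPM in BL/10, also with the first BL/10 library highest. For Cd86 they were Cyp4f18, Prdx4 and Snx5, at 0.0308, 0.0442 and 0.0536, and with 4 libraries such a ranking is a description only.

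Icosl encodes the ligand of ICOS, through which B cells sustain follicular helper T cells. It was among the most abundant genes of the set in both strains. Icosl (chromosome 10, 78069368 to 78079525) stood at 481 and 535 CPM in NOD.B10, against 426 and 433 CPM in BL/10. Both NOD.B10 libraries lay above both BL/10 libraries, by a small margin, and the difference was not called (log2 fold change 0.24, SE 0.101, 95% interval 0.024 to 0.46, adjusted p = 0.138, n = 2 per strain, edgeR). The unadjusted p was 0.0322, and no setting tried gave a call.

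Cd274 and Pdcd1lg2 encode PD-L1 and PD-L2, the ligands of the inhibitory receptor PD-1. They are neighbours on chromosome 19, 22.8 kilobases apart with 0 tested genes between them. Cd274 (29362107 to 29388095) had 55.5 and 51.9 CPM in NOD.B10, against 75.6 and 63.6 CPM in BL/10. The strains did not overlap, but the difference missed the threshold (log2 fold change −0.38, SE 0.129, 95% interval −0.65 to −0.098, adjusted p = 0.0686, n = 2 per strain, edgeR). It was called lower without the second BL/10 library (adjusted p = 0.0147), with no filter on low counts (adjusted p = 0.0337) and with libraries scaled to B cell markers (adjusted p = 0.0101), the last setting being added after the data were seen.

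Pdcd1lg2 (29410919 to 29472927) had 22.9 and 28.0 CPM in NOD.B10, against 28.6 and 30.8 CPM in BL/10, with the higher NOD.B10 library just under the lower BL/10 library. It was not called (log2 fold change −0.22, SE 0.161, 95% interval −0.57 to 0.13, adjusted p = 0.445, edgeR). The CPM of Cd274 was 2.42 and 1.85 times that of Pdcd1lg2 in NOD.B10, against 2.65 and 2.07 times in BL/10, and these ratios overlapped between strains. Irf1, which encodes a transcription factor known to induce PD-L1 and was picked out after its values were seen, stood at 174 and 216 CPM in NOD.B10 and 159 and 173 CPM in BL/10 and was not called (log2 fold change 0.23, adjusted p = 0.262, edgeR). The Cd274 promoter in RefSeq held 0 of the 5 motifs searched, and that of Pdcd1lg2 held the loose NF-kB motif.

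**Figure D3:**
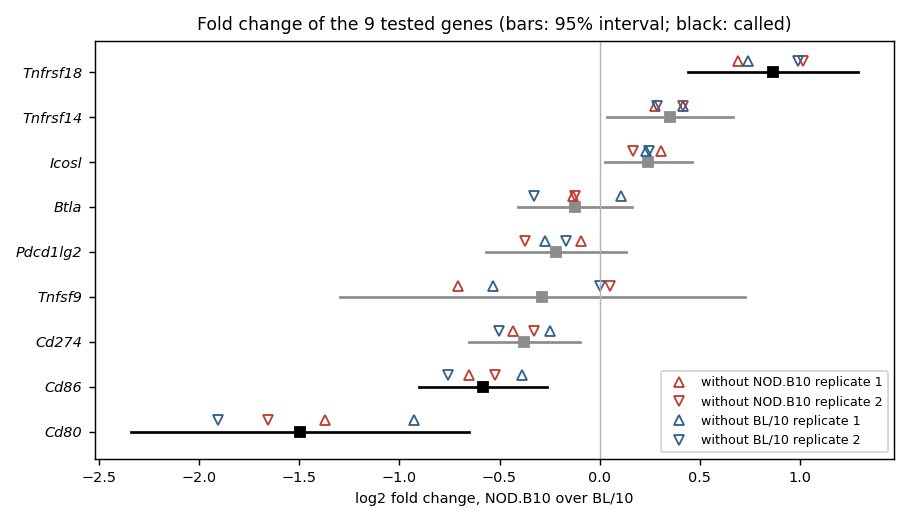
Log2 fold change (NOD.B10 over BL/10) of the 9 tested genes, with squares for all 4 libraries, bars for the 95% interval, and black for the 3 called genes; open triangles give the value with 1 library left out. Leaving out the first BL/10 library moves Cd80 to −0.93 and Cd86 to −0.39, the nearest to 0 of the 4 triangles for each.

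The B7 family list holds 10 genes, the 5 ligands above among them. Of the 10 listed, 8 were tested, of which 4 were called lower in NOD.B10, 0 higher and 4 were not called, with a median log2 fold change of −0.48. Beside Cd80 and Cd86, the called genes were Cd276 and Vsir. Vsir, counted under its older symbol 4632428N05Rik, encodes the inhibitory ligand VISTA, which is abundant on myeloid cells. It had 21.2 and 25.4 CPM in NOD.B10, against 47.1 and 49.6 CPM in BL/10 (log2 fold change −1.05, SE 0.147, adjusted p = 2.63e-04, edgeR). Cd276, which encodes B7-H3, had 10 and 21 reads in NOD.B10, against 77 and 112 reads in BL/10 (adjusted p = 0.00708, edgeR, or 0.0928 without the second BL/10 library). Vtcn1 and Btn1a1 had 0 reads in all libraries. Of 13 macrophage and monocyte markers tested, 4 were called lower and 0 higher in the same NOD.B10 libraries. All 16 listed summed to 66.4 and 49.8 CPM in NOD.B10 and 154 and 160 CPM in BL/10. Apoe alone had 16.7 and 17.6 CPM in NOD.B10 and 81.0 and 80.8 CPM in BL/10. Of the 9 not called, Emr1 was higher in both NOD.B10 libraries (log2 fold change 0.64, adjusted p = 0.138, edgeR). C1qa and C1qb had log2 fold changes of −0.018 and −0.0075. The part of these cells, and that of T cells, in the Vsir and Cd276 values was not tested.

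Among the TNF superfamily ligands, Tnfsf9 and Cd70 were both scarce. Tnfsf9 encodes 4-1BBL, the ligand of the T cell receptor 4-1BB, and Cd70 the ligand of CD27; activated B cells are known to express both. They lie 38.2 kilobases apart on chromosome 17 with 0 tested genes between them. Tnfsf9 (57105287 to 57107758) had 47 and 37 reads in NOD.B10, or 2.44 and 1.45 CPM, against 57 and 72 reads in BL/10, or 1.92 and 2.79 CPM. The strains overlapped and the gene was not called (log2 fold change −0.29, SE 0.468, 95% interval −1.30 to 0.72, adjusted p = 0.768, edgeR). The interval spans both directions.

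Cd70 (57145997 to 57149777) had 0 reads in both NOD.B10 libraries and 0 and 2 reads in the BL/10 libraries, and did not pass the filter. A count of 0 allows up to 0.0669 CPM over both NOD.B10 libraries, taking 3 reads as the limit, and such limits cover counting error only. No fold change can be given for Cd70, since both strains were below 3 reads.

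The other called ligands of the TNF superfamily are known products of T cells, among other cells. Of the 16 listed ligands 11 were tested, of which 5 were called lower in NOD.B10 and 0 higher, with a median log2 fold change of −0.95. Tnfsf8, the CD30 ligand, had 0 and 0 reads in NOD.B10, against 84 and 88 reads in BL/10 (adjusted p = 8.75e-05, edgeR). Cd40lg, the ligand by which helper T cells engage CD40 on B cells, had 2 and 2 reads in NOD.B10, against 103 and 82 reads in BL/10 (adjusted p = 1.12e-04, edgeR). Tnfsf11, which encodes RANKL, had 0 and 0 reads in NOD.B10, against 21 and 26 reads in BL/10 (adjusted p = 0.00636, edgeR, or 0.0533 without the second BL/10 library). These genes moved with the T cell markers given above, and the part of those cells was not tested.

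Btla and Tnfrsf14 encode a receptor pair that B cells can carry on the same surface. Btla was the most abundant of the 10 genes. Btla (chromosome 16, 45223705 to 45252895) stood at 795 and 794 CPM in NOD.B10, against 993 and 739 CPM in BL/10. The NOD.B10 libraries were nearly equal and lay between the BL/10 libraries. The gene was not called (log2 fold change −0.12, SE 0.130, 95% interval −0.41 to 0.16, adjusted p = 0.618, edgeR), but its direction turned on 1 library. Without the first BL/10 library the log2 fold change was 0.10 (adjusted p = 0.602), and without the second it was −0.33 and called lower (adjusted p = 0.0208).

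The promoter of Btla (chr16:45224087-45224386, plus strand, GRCm38.p6, RefSeq) is given as that of the most abundant gene. Capitals mark 2 matches to GAGGAAG, a motif of ETS factors such as PU.1, which overlap by 1 base; 13.6% of all promoters in the table held this motif, and Btla was the 1 of the 7 genes that did.

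Btla: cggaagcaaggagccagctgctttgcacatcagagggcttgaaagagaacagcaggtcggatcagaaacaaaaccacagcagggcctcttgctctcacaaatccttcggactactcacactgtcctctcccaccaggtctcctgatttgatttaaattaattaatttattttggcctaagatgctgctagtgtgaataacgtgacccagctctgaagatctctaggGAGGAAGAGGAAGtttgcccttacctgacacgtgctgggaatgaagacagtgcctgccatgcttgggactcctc

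Tnfrsf14 (chromosome 4, 154918487 to 154928620), which encodes HVEM, had 37.9 and 34.7 CPM in NOD.B10, against 29.7 and 27.2 CPM in BL/10. Both NOD.B10 values were above both BL/10 values, and the difference was not called (log2 fold change 0.35, SE 0.145, 95% interval 0.037 to 0.67, adjusted p = 0.135, edgeR). In CPM, Btla was 21.0 and 22.9 times Tnfrsf14 in NOD.B10, against 33.4 and 27.1 times in BL/10, so that the ratio of the inhibitory receptor to its partner was lower in both NOD.B10 libraries. The promoter of Tnfrsf14 was the 1 of 7 that held the interferon-stimulated response element motif GAAANNGAAA, present in 3.44% of all promoters.

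Tnfrsf18 encodes GITR, a costimulatory receptor best known on regulatory T cells and also present on B cells. It was the 1 of the 10 genes called higher in NOD.B10. Tnfrsf18 (chromosome 4, 156026322 to 156028894) had 23.5 and 18.8 CPM in NOD.B10, against 10.6 and 12.6 CPM in BL/10. The strains were well separated, and the NOD.B10 libraries differed 1.25-fold from each other. The log2 fold change was 0.86 (SE 0.197, 95% interval 0.44 to 1.29, adjusted p = 0.00922, n = 2 per strain, edgeR). Without the first NOD.B10 library it was 0.69 and the call was lost by a small margin (adjusted p = 0.0551).

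That library also stood apart for early response genes. Fos had 228 and 10.7 CPM in NOD.B10, against 47.9 and 28.2 CPM in BL/10, and Cd69, an early activation marker, had 178 and 62.3 CPM in NOD.B10, against 46.5 and 58.4 CPM in BL/10. Neither was called, and the part of this response in the Tnfrsf18 value was not tested. Regulatory T cells are another known source of Tnfrsf18, and their part in its value was not tested. Foxp3, their defining transcription factor, had 4.56 and 3.13 CPM in NOD.B10, against 7.50 and 9.69 CPM in BL/10. Foxp3 was called lower (adjusted p = 0.0179, edgeR), although not on leaving out the second library of NOD.B10 (adjusted p = 0.0642) or of BL/10 (adjusted p = 0.116). Of 9 regulatory and follicular helper T cell markers tested, 6 were called lower and 0 higher. The 6 include Foxp3 itself, and also Icos, Ctla4 and Pdcd1, which are counted again below as partner genes.

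The Tnfrsf18 promoter (chr4:156026072-156026371, plus strand, GRCm38.p6, RefSeq) is shown as that of the called gene that was higher. Capitals mark a match to TTCNNNGAA, the STAT motif, which 8.3% of all promoters held and which no other of the 7 genes had in this window.

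Tnfrsf18: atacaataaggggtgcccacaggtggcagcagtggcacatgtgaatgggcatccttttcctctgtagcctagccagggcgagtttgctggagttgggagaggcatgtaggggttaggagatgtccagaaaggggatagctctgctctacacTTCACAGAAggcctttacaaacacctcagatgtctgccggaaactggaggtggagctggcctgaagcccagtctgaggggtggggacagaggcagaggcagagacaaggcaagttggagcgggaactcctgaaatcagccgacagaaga

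The genes with a pattern most like that of Tnfrsf18 were Plk1s1, Fndc9 and Il18bp, at distances of 0.0722, 0.0763 and 0.103. Fndc9 had 58.2 and 43.5 CPM in NOD.B10 and 25.5 and 29.8 CPM in BL/10. Il18bp, the soluble inhibitor of IL-18, had 20.5 and 15.3 CPM in NOD.B10 and 9.22 and 11.3 CPM in BL/10. All 3 were called higher, and as with Tnfrsf18 the first NOD.B10 library was the highest of the 4. Without that library Plk1s1 and Il18bp lost their calls (adjusted p = 0.102 and 0.186), as they did on leaving out the first of BL/10 (adjusted p = 0.0512 and 0.0860).

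Levels of different genes were compared per kilobase of the length that the authors deposited with the counts. In NOD.B10 the order from high to low was Btla (246 CPM per kilobase), Icosl (185), Tnfrsf14 (40.7), Tnfrsf18 (21.0), Cd274 (14.8), Cd86 (14.4), Pdcd1lg2 (7.46), Tnfsf9 (1.58), Cd80 (1.25) and Cd70 (0). Cd274 and Cd86 overlapped between libraries, as did Tnfsf9 and Cd80. In BL/10 the order was Btla (268 CPM per kilobase), Icosl (156), Tnfrsf14 (31.9), Cd86 (21.6), Cd274 (19.1), Tnfrsf18 (11.5), Pdcd1lg2 (8.69), Cd80 (3.55), Tnfsf9 (1.92) and Cd70 (0.0460), and Cd86 and Cd274 overlapped. Tnfrsf18 thus stood above Cd86 and Cd274 in NOD.B10 and below them in BL/10. Btla and Icosl were above 98.9% and 98.5% of all tested genes in NOD.B10 and above 99.0% and 97.9% in BL/10 on this scale. Cd80 was above 20.3% of tested genes in NOD.B10 and above 31.5% in BL/10.

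**Figure D4:**
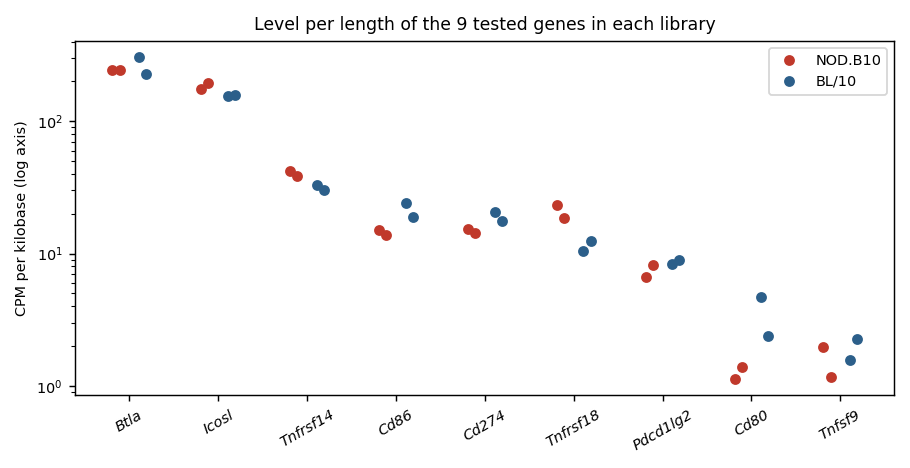
Level per length (CPM per kilobase of deposited gene length, log axis) of the 9 tested genes; each point is 1 library, red for NOD.B10 on the left and blue for BL/10 on the right of each gene. Btla and Icosl lie above 150 CPM per kilobase in every library, and Cd80 and Tnfsf9 below 5; Cd70, with 0 reads in 3 libraries, is not drawn.

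The receptors and ligands that pair with the 10 genes were mostly lower in NOD.B10. Of 11 partner genes, all tested, 6 were called lower, 1 higher and 4 were not called, with a median log2 fold change of −3.23, and 7 of the 11 had 20 or fewer reads over both NOD.B10 libraries. Cd28, the receptor of Cd80 and Cd86, had 6 and 10 reads in NOD.B10, against 987 and 700 reads in BL/10 (adjusted p = 1.09e-08, edgeR). Icos, the receptor of Icosl, had 1 and 2 reads in NOD.B10, against 233 and 236 reads in BL/10 (adjusted p = 9.52e-07, edgeR). Ctla4, the inhibitory receptor of Cd80 and Cd86, had 6 and 0 reads in NOD.B10, against 150 and 129 reads in BL/10 (adjusted p = 0.00116, edgeR). All 3 are genes of T cells, and they were lower together with the T cell markers. Cd28 is itself one of those markers, and Icos and Ctla4 are among the regulatory and follicular helper T cell markers.

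Pdcd1, which encodes PD-1, had 6 and 0 reads in NOD.B10, against 53 and 65 reads in BL/10 (adjusted p = 0.0138, edgeR, or 0.0649 without the second BL/10 library). Tnfrsf9, the receptor of Tnfsf9, had 5 and 9 reads in NOD.B10, against 72 and 89 reads in BL/10 (adjusted p = 0.00170, edgeR). Tnfsf14, which encodes LIGHT, a ligand of HVEM, had 2 and 0 reads in NOD.B10, against 14 and 32 reads in BL/10. It was called (adjusted p = 0.0302, edgeR). The call was lost on leaving out the second library of NOD.B10 (adjusted p = 0.121) or of BL/10 (adjusted p = 0.299), under a replicate block (adjusted p = 0.0755) and in DESeq2 (adjusted p = 0.0571). Tnfsf18, the ligand of Tnfrsf18, had 9 and 2 reads in NOD.B10, against 6 and 21 reads in BL/10, and was not called (adjusted p = 0.619, edgeR).

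The remaining partners, Rgmb, Cd27, Lta and Cd160, each had more than 20 reads over both NOD.B10 libraries. Which cells these reads came from was not tested. Rgmb encodes a bone morphogenetic protein coreceptor that also binds PD-L2. It had 38.8 and 31.8 CPM in NOD.B10, against 12.5 and 14.7 CPM in BL/10, and was the partner called higher (log2 fold change 1.37, SE 0.175, adjusted p = 1.17e-04, edgeR). Cd27, the receptor of Cd70, had 18.0 and 16.6 CPM in NOD.B10, against 23.2 and 21.6 CPM in BL/10, and was not called (adjusted p = 0.175, edgeR) except with scaling to B cell markers (adjusted p = 0.0416). Lta, which encodes lymphotoxin alpha, another ligand of HVEM, had 31.4 and 34.1 CPM in NOD.B10, against 15.6 and 26.7 CPM in BL/10. It was not called with all libraries (log2 fold change 0.63, adjusted p = 0.104, edgeR), but was called higher with no filter (adjusted p = 0.00212) and under a replicate block (adjusted p = 0.0325). Leaving out the first library of NOD.B10 (adjusted p = 0.0168) or the second of BL/10 (adjusted p = 6.05e-04) gave the call too. Cd160, a further ligand of HVEM, had 7.51 and 4.70 CPM in NOD.B10, against 4.12 and 3.80 CPM in BL/10, and was not called (adjusted p = 0.254, edgeR).

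Known regulators of the 10 genes were counted next. Of 28 tested, 4 were called higher in NOD.B10 and 0 lower, beside 6.55% higher and 8.63% lower over all genes tested. The median log2 fold change of the 28 was 0.18. The 4 were Nfkb2, Rel, Stat3 and Traf3, the last named after its values were seen. Rel, an NF-kB subunit of B cell activation, had 338 and 303 CPM in NOD.B10, against 233 and 259 CPM in BL/10 (log2 fold change 0.38, SE 0.109, adjusted p = 0.0294, edgeR). Stat3 had 371 and 374 CPM in NOD.B10, against 286 and 281 CPM in BL/10 (log2 fold change 0.39, SE 0.0984, adjusted p = 0.0152, edgeR). Rel lost its call without the first library of either strain (adjusted p = 0.289 for NOD.B10, 0.0594 for BL/10) and under a replicate block (adjusted p = 0.0533). Stat3 lost it without either NOD.B10 library (adjusted p = 0.0986 and 0.0944). Traf3 lost it under a replicate block (adjusted p = 0.0511), on leaving out either library of NOD.B10 (adjusted p = 0.0914 and 0.219) and on leaving out the first of BL/10 (adjusted p = 0.0703). Of these 4 genes, Nfkb2 alone was still called when the first NOD.B10 library was left out. With scaling to B cell markers, Rel, Stat3 and Traf3 were no longer called (adjusted p = 0.186, 0.140 and 0.222), and Nfkb2, at 429 and 419 CPM in NOD.B10 and 232 and 301 CPM in BL/10, still was.

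Among 18 tested genes that activated B cells raise, 2 were called higher, 3 lower and 13 were not called, with a median log2 fold change of 0.30. Cd83, an activation marker that limits the removal of CD86 from the cell surface, had 431 and 436 CPM in NOD.B10, against 220 and 260 CPM in BL/10 (log2 fold change 0.85, SE 0.109, adjusted p = 1.25e-04, edgeR). Cd40, through which T cell help induces Cd80 and Cd86, was the other higher gene, at 156 and 174 CPM in NOD.B10 and 80.8 and 90.6 CPM in BL/10. Cd44, Il2ra and Ccl22 were lower. Il2ra is also among the regulatory and follicular helper T cell markers. The part of other cells in the values of the 3 lower genes was not tested. Cd83 was named after its values were seen. Cd80 and Cd86 thus differed in the opposite direction to Cd40 and Cd83, and in the same direction as Cd44, Il2ra and Ccl22.

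Other pairs of costimulation and inhibition were counted as well. Of 30 tested, 4 were called higher, 12 lower and 14 were not called, with a median log2 fold change of −0.53. The higher genes were Cd40, Cd200, Havcr1 and Cd244. Havcr1, which encodes TIM-1, a marker of regulatory B cells in mice, had 8.03 and 7.71 CPM in NOD.B10, against 1.49 and 1.47 CPM in BL/10 (log2 fold change 2.41, SE 0.327, adjusted p = 2.03e-04, edgeR). Cd244, which encodes the SLAM family receptor 2B4, had 11.7 and 14.6 CPM in NOD.B10, against 4.09 and 4.96 CPM in BL/10 (log2 fold change 1.54, SE 0.250, adjusted p = 8.86e-04, edgeR). Havcr1 and Cd244 were named after their values were seen. Ceacam1, an inhibitory receptor of several lymphocytes, had 13.1 and 14.0 CPM in NOD.B10, against 63.1 and 62.1 CPM in BL/10 (log2 fold change −2.21, SE 0.142, adjusted p = 2.01e-07, edgeR). Cd6 and Cd96, receptors of T cells, had the other smallest adjusted p among the lower genes, and moved with the T cell markers. Cd6 is itself one of those markers.

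The surroundings of the genes on the chromosomes were read from the same fit. For each gene the 5 nearest tested genes on either side were taken, which gave 80 distinct flanking genes. Of these, 6 were called higher and 9 lower, or 18.8%, against the 15.2% of all genes tested. Beside Cd80, 1 of 10 was called, Arhgap31, at 1.61 and 1.45 CPM in NOD.B10 and 34.6 and 38.1 CPM in BL/10. Beside Cd86, 3 of 10 were called lower, among them Ildr1 and Slc15a2, whose nearer ends lie 27.8 and 84.0 kilobases away; Ildr1 was not called without the second BL/10 library (adjusted p = 0.0775). Beside Cd274, Plgrkt, which overlaps it in position, had 18.1 and 15 CPM in NOD.B10 and 23.2 and 27.5 CPM in BL/10 and was called lower (adjusted p = 0.0323, edgeR), though not without the second library of NOD.B10 (adjusted p = 0.163) or of BL/10 (adjusted p = 0.139). The strand setting of the counting is not given in the sources used here, so reads of Cd274 and Plgrkt that overlap may not be told apart.

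Btla had the most called flanking genes, 4 of 10, although it was not called itself. They were Cd200 and Slc9c1, which were higher but not called in some settings with 1 library left out (adjusted p up to 0.0776 and 0.104), and Cd200r1 and 1 further gene, which were lower. Cd200 encodes an inhibitory ligand of B cells, and its receptor gene Cd200r1 had 1 and 0 reads in NOD.B10, against 44 and 59 reads in BL/10 (adjusted p = 0.00112, edgeR). Beside Tnfrsf18, 1 of 10 was called, 2310042D19Rik, and its adjusted p of 0.0473 rose above 0.05 in several settings. Gm10560, which was not called, spans all of Tnfrsf18 in position. It had 0.466 and 0.470 CPM in NOD.B10 and 0.0675 and 0.388 CPM in BL/10. Gm11110, also not called, overlaps Tnfsf9 in position. As with Cd274 and Plgrkt, reads that overlap within these pairs may not be told apart.

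**Figure D5:**
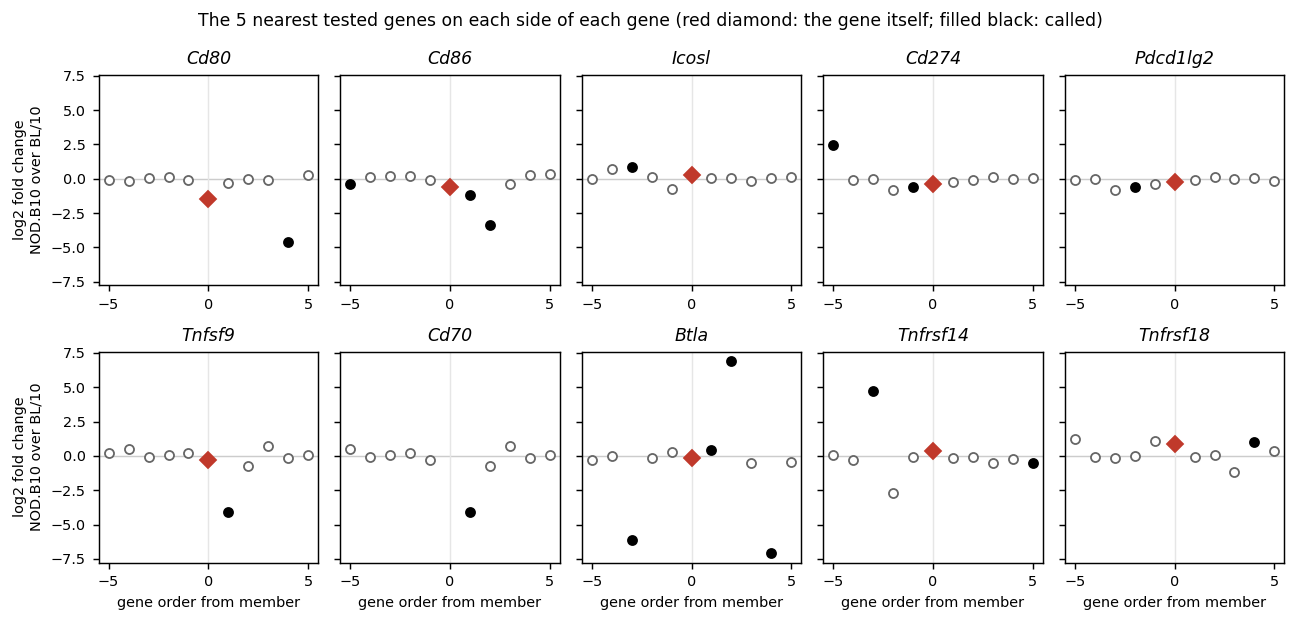
Log2 fold change (NOD.B10 over BL/10) of the 5 nearest tested genes on each side of each of the 10 genes, in gene order along the chromosome; filled black points are called, open points are not, and the red diamond is the gene itself. Most open points lie near 0, Arhgap31 beside Cd80 lies at −4.58, and points beyond 6 in size belong to genes with 2 or fewer reads in 1 strain, whose fitted fold change is not a bound.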

How the data were processed

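Per the submitters' processing notes, the upstream tools were HISAT2 2.1.0, SAMtools 1.3, Subread 1.6.5 and featureCounts, with build mm10. The gene annotation, strand setting and handling of multiply mapped reads are not given in the sources used here, and whether sequence differences between the strains and the reference affected alignment was not tested. The authors deposited unnormalised read counts per gene symbol and, in another column, a gene length in bases; this other measure was used only for levels per kilobase. Columns were matched to samples by library names in the labels.

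Groups were compared in R 4.3.3 by the two-sided quasi-likelihood test of edgeR 4.0.16, with robust dispersion, after TMM normalisation and filterByExpr (minimum count 10, minimum total 15), on all 13075 genes left, with Benjamini-Hochberg adjustment and a threshold of 0.05. The SE is the unshrunk log2 fold change divided by the root of F, and 95% intervals use the test's degrees of freedom. CPM are per 1000000 reads over TMM-scaled library sizes. Counting intervals are exact Poisson. The procedure was tested on simulated data. Alternatives used RLE and upper-quartile factors, DESeq2 1.42.0, limma-voom (limma 3.58.1), other filters, non-robust dispersion, a replicate block and each library left out; scaling to B cell markers and leaving out Rn45s, a ribosomal RNA gene, were added after the data were seen. Patterns were compared by Euclidean distance on log2 CPM (prior count 2) over tested genes whose mean on that scale was 3 or more, unnamed gene models left out.

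Genes were named by rule: the 10 genes, all partner genes, up to 3 called genes per list with the smallest adjusted p (or 1 by unadjusted p where none was called), the 3 genes most like each called gene, and up to 2 called flanking genes for each of the 10. Others are said to be picked after their values were seen, also Fos, Cd69, Igj, Sdc1, Foxp3, Cd2, Lck, Cd3e, Ms4a1 and Cd200r1. Gm10560, Gm11110, Zbtb46, Ccr7, Emr1, C1qa, C1qb, Xbp1, Mzb1, Derl3 and Irf4 were not named by the rule either. S1pr3, Cd38, Cr2, Cd1d1 and Dtx1 were likewise outside the rule. The 10 genes and the lists were chosen with earlier results of these data known. Symbols, positions and promoters are from RefSeq on GRCm38.p6, the assembly of mm10, with 23234 of 23418 symbols matched. Promoters were given for 7 of the 10 genes, and protein identity between them was not analysed here.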

Additional observations from a re-analysis of the deposited data

How the results depend on the processing

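All genes called numbered 1756 to 2584 over the 14 alternatives, against 1986, and called genes of all lists 73 to 94, against 79. Of the 10 genes, 1 was called without the first BL/10 library and 5 without the second, against 3 with all libraries, a range of 1 to 5 with 1 library left out. With 1 library left out, log2 fold changes ranged from −0.71 to 0.050 for Tnfsf9 (positive without the second NOD.B10 library), −0.33 to 0.10 for Btla (positive without the first BL/10 library), −2.62 to 0.36 for Tnfsf18 (positive without the second BL/10 library) and −1.84 to 2.58 for Fos (negative without the first NOD.B10 library). Icosl, Pdcd1lg2 and Tnfrsf14 stayed uncalled with 1 direction in all 14. Scaling to B cell markers, added after the data were seen, moved the median of all genes to −0.17 and the calls to 551 higher and 1832 lower, against 857 and 1129. That setting takes the mean log level of these markers as equal in all libraries. In the main fit their sum was higher in both NOD.B10 libraries, and Fcer2a among them was called higher. With a replicate block, 1802 genes were called and the same number of the 10, 3; the replicate numbers share no source in the labels, and deviations of same-numbered libraries had a correlation of −0.0165 over genes. Leaving out 1 library assumes that the lone library of a strain varies like the other strain's. Depth limits Cd70, Tnfsf9 and Cd80 most.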
